A study of Homo sapiens with 66 samples.

Results

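The 10 genes of RNA polymerase I and the nucleolus were described in 11 acute myeloid leukemia (AML) cell lines before and after etoposide, a topoisomerase II poison. They were chosen by symbol, which gave 10 of 57992 genes counted. The members were POLR1A, POLR1B, POLR1C and POLR1E, subunits of RNA polymerase I (Pol I), UBTF, RRN3 and TAF1D, factors of Pol I initiation, and NCL, NPM1 and FBL, abundant proteins of the nucleolus. MYC, a transcription factor known to raise ribosome production, was set beside them.

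Pol I transcribes the repeated ribosomal RNA genes and makes the precursor of the large ribosomal RNAs in the nucleolus. UBTF covers the active repeats, the selectivity factor to which TAF1D belongs recognises the promoter, and RRN3 bridges that factor to the polymerase. The transcript is then modified and cut by small nucleolar ribonucleoproteins (snoRNPs) and processing factors, and a block of this path is known as nucleolar stress.

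The cell lines were F36P, HL60, KASUMI1, MOLM13, MONOMAC6, MV411, NB4, NOMO1, OCIAML2, OCIAML3 and THP1, each an established line of human AML origin. Every line was either left untreated, in medium alone, or given etoposide for 24 h at the concentration that was its own IC50, a measure of its sensitivity, so the concentration differed from line to line. Each condition of each line had 3 libraries, or 66 in all, and the RNA of a library came from pooled wells of 1 line. The replicates were described as biological, but all came from the same line, so p-values within a line measure the spread between cultures of that line. Messenger RNA was read with a stranded kit, hence ribosomal RNA itself, the product of Pol I, was not measured.

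The libraries held from 17997404 to 24101670 reads on genes. A gene's level is given as CPM, read counts scaled to the library's total and normalised by the TMM method, and the change as log2 of etoposide over untreated. The pan-leukocyte gene PTPRC and the myeloid genes SPI1, CD33 and LYZ were at 1 CPM or more in 11 of 11 lines. The erythroid genes GATA1 and KLF1 were highest in F36P, at 246 and 224 CPM, and each was at 1 CPM or more in 3 lines. The myeloid genes MPO and CEBPA were lowest in F36P, at 0.946 and 0.536 CPM. KASUMI1 had the epithelial marker EPCAM at 77.0 CPM. The proliferation genes MKI67 and TOP2A had medians over lines of 761 and 580 CPM in untreated cells and of 761 and 597 CPM after etoposide, and their part in the results was not tested. The etoposide libraries of OCIAML2 were dropped by the study after a check of their raw reads, and they are described apart from the other 10 lines. In F36P, untreated replicate 1 stood apart from the other untreated libraries in several members, and its effect is given beside the results it moved.

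MYC is known to bind the canonical E-box, CACGTG, with its partner MAX. This motif was searched within 1000 bases on each side of the annotated transcript start of each member on GRCh38, in which the motif reads alike on both strands. It was found at 6 of 10 members, and at 5728 of 19629 protein-coding genes (29.2%) in windows of the same length. The latter include genes not expressed in these lines, and base composition was not matched. No enrichment can therefore be read from these shares. The windows of 30 bases are shown because they tell apart the members with and without these letters. They are printed on the strand of the gene, with the E-box in capitals.
NCL, chr2:231463996-231464025, minus strand, intron, 471 bases after the start: cgactcctgacgCACGTGcccgggagcgcg
NCL, chr2:231463972-231464001, minus strand, intron, 495 bases after the start: agcgcggcctgcCACGTGggccgcgccgcg
NCL, chr2:231463840-231463869, minus strand, intron, 627 bases after the start: ctggcaagccgaCACGTGgtgggccccgga
NCL, chr2:231463783-231463812, minus strand, intron, 684 bases after the start: ctgtgtttcgggCACGTGgtggcctaccag
NCL, chr2:231463758-231463787, minus strand, intron, 709 bases after the start: accaggtaccccCACGTGgccgcgccgcct
NPM1, chr5:171388562-171388591, plus strand, intron, 725 bases after the start: aaccgctgggagCACGTGgttgccacgtgg
NPM1, chr5:171388573-171388602, plus strand, intron, 736 bases after the start: gcacgtggttgcCACGTGgttgggggaggg
FBL, chr19:39846356-39846385, minus strand, first exon ahead of the coding part, 6 bases after the start: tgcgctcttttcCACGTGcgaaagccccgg
POLR1B, chr2:112542606-112542635, plus strand, coding exon, 153 bases after the start: ctgacgcgggcgCACGTGgagtccttcaac
POLR1E, chr9:37485537-37485566, plus strand, upstream of the gene, -399 bases from the start: gagctggatgtcCACGTGggtgggtgggaa
TAF1D, chr11:93740906-93740935, minus strand, intron, 572 bases after the start: ccgctctctgccCACGTGgcctctaagaat

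NCL held 5 of these motifs in intron sequence near its start, and NPM1 held 2 whose windows overlap. FBL, POLR1B, POLR1E and TAF1D had 1 each, while POLR1A, POLR1C, UBTF and RRN3 had none of these letters in the stretch searched. The motif is a description of the sequence and no binding was measured here.

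In untreated cells, the 3 nucleolar proteins and TAF1D had the highest levels per length of the canonical transcript, and RRN3 the lowest. Reads were counted over all annotated exons of a gene, which can be much longer than that transcript, as for TAF1D, UBTF and POLR1C. The order of these genes thus depends on the length chosen. NPM1, a chaperone that shuttles between nucleolus and cytoplasm, had a median over the 11 lines of 1140 CPM per kb. NCL (nucleolin, an RNA-binding protein) had 456 CPM per kb and FBL (fibrillarin, the methyltransferase of box C/D snoRNPs) 149 CPM per kb. TAF1D had 119 CPM per kb. Its annotated exons, merged over all transcripts, overlap snoRNAs on the same strand, on which 0 reads were counted. Reads in such overlaps may be assigned to neither gene, so this does not show that they are absent. UBTF followed at 48.6, POLR1C at 45.4 and POLR1E at 33.2 CPM per kb. POLR1B and POLR1A, which form the catalytic core of the enzyme, stood close together at 15.1 and 14.3 CPM per kb. RRN3 had 3.36 CPM per kb, and reads that match its near-identical copies as well may be missing from this value. POLR1C is also a subunit of RNA polymerase III, unlike the other Pol I subunits among the members.

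**Figure D1:**
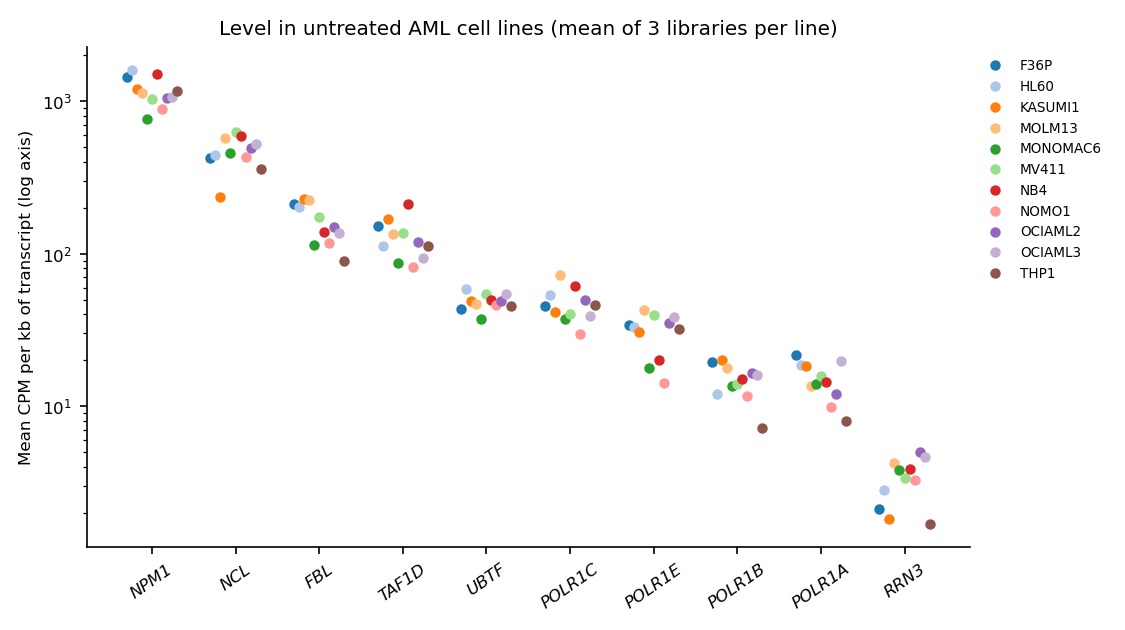
Mean CPM per kb of the canonical transcript in untreated cells (vertical log axis) for the 10 genes, with 1 point per cell line, the mean of 3 libraries. NPM1 had a median of 1140 CPM per kb and RRN3 of 3.36 CPM per kb, and the points of UBTF lie closest together.

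Between lines, levels of the same gene differed by 1.57 to 3.02 times from the lowest to the highest line. UBTF was the most even member, from 178 CPM in MONOMAC6 to 280 ± 17.3 CPM (SD, n = 3) in HL60, and each of its 10 neighbouring pairs in the order of lines had overlapping libraries. The SD of its level over lines was lower than that of all but 2.42% of the genes tested. The widest ranges were those of POLR1E, from 26.4 CPM in NOMO1 to 79.8 CPM in MOLM13, and of RRN3, from 6.22 ± 0.691 CPM in THP1 to 18.6 CPM in OCIAML2. MYC varied more than any of them, from 155 ± 9.08 CPM in THP1 to 977 ± 68.7 CPM in HL60, a ratio of 6.3. For all 10 members the test of a difference between lines passed (edgeR, adjusted p from 3.14e-20 for POLR1E to 3.08e-06 for UBTF), as did 99.4% of the genes tested.

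The lines did not rank alike for different members. THP1 had the lowest level of POLR1A (99.4 ± 9.68 CPM), POLR1B (53.9 ± 2.13 CPM), RRN3 and FBL (100 ± 4.18 CPM). Its RRN3 libraries overlapped with those of KASUMI1, the line next to it. F36P had the highest POLR1A (272 ± 34.9 CPM), although its libraries overlapped with those of OCIAML3, the next line. KASUMI1 led in POLR1B (150 ± 5.12 CPM) and FBL (257 CPM) and was lowest in NCL (930 CPM), which was highest in MV411 (2470 CPM). The libraries at the top overlapped with those of the next line for all of these genes, F36P for POLR1B, MOLM13 for FBL and NB4 for NCL. HL60 had the highest mean of NPM1 (2120 ± 62.7 CPM) with no overlap to NB4, the next line, and MONOMAC6 was lowest (1010 CPM). The NPM1 libraries of F36P spread from 1260 to 2400 CPM and overlapped with those of HL60. NB4 stood alone at the top for TAF1D (344 CPM), and MOLM13 for POLR1C (93.1 CPM) and POLR1E. Across the 11 lines, the correlation of log2 levels between pairs of members had a median of 0.28 over 45 pairs (from -0.33 to 0.76), a description of lines that share libraries and depth.

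After etoposide, the members fell in most lines. Of the 100 pairs of member and line in the 10 lines, 83 were lower at an FDR below 0.05 (the quasi-likelihood test of edgeR, adjusted by Benjamini-Hochberg over all genes) against 24.4% of all pairs of gene and line tested. Another 2 pairs, both of RRN3, were higher (27.7% of all pairs were), and 15 passed in neither direction. In 85 pairs all 3 etoposide libraries lay below all 3 untreated ones, which 28.6% of all pairs did. Under the stricter rule of the study, a fold change above 2 at that FDR, the count was 18 pairs, all lower (3.96% of all pairs were lower by this rule), and 0 member pairs were higher by this rule (11.1% of all pairs) in edgeR's quasi-likelihood test, its exact test and DESeq2, with 2 pairs higher at an unadjusted p below 0.05. The median log2 fold change of the 100 pairs was -0.57, and that of all genes was 0.01. CPM is relative to all counted RNA, and in such bulk samples a loss of cells with a high level and less RNA in each cell cannot be told apart.

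**Figure D2:**
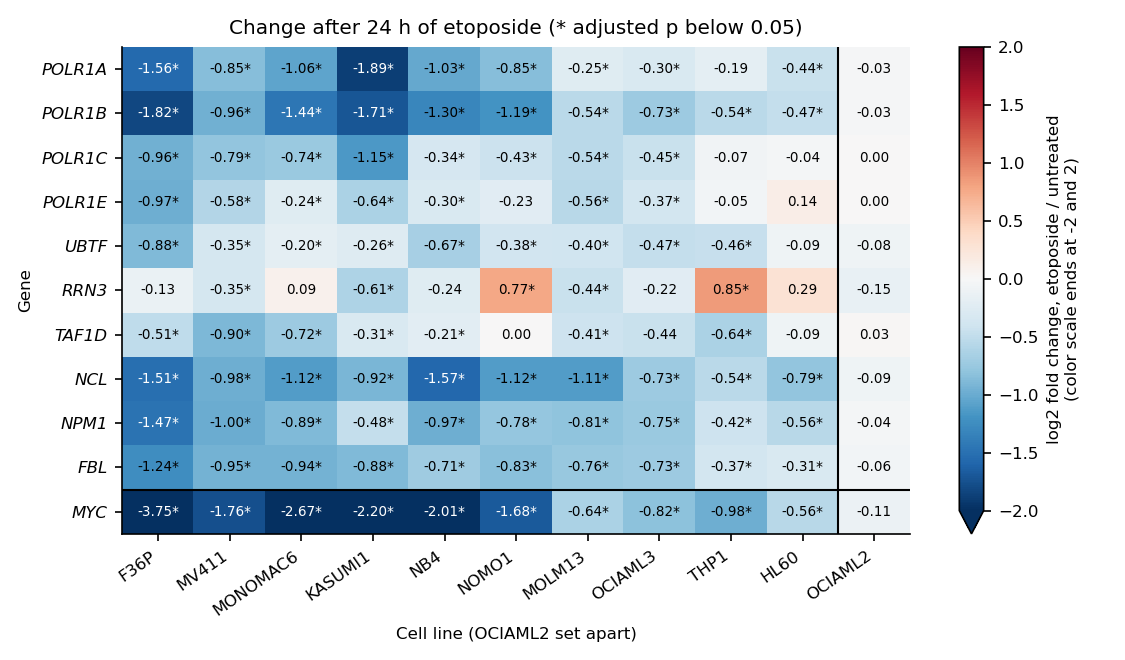
Log2 fold change of the 10 genes and MYC (rows) after 24 h of etoposide in each cell line (columns, ordered by the median of the 10 genes), with an asterisk where the adjusted p was below 0.05. F36P had the lowest median (-1.1) and HL60 the highest of the 10 lines (-0.2), and only RRN3 was higher past the threshold, in NOMO1 and THP1.

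Taken over the lines, with 1 value per line, 9 of 10 members had a lower mean (limma, adjusted p from 6.26e-05 to 0.00908), as 26.1% of genes did. The exception was RRN3, whose mean log2 fold change was 0.00 ± 0.143 (SE, n = 10; adjusted p = 0.999). The size of the change differed between lines for all 10 members (edgeR interaction test, adjusted p from 1.4e-16 to 0.00105), and also for 74.5% of all genes tested.

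POLR1A and POLR1B, the subunits that make up the active centre, had the 3 largest single changes of the members. POLR1B had a mean log2 fold change of -1.07 ± 0.144 (SE, n = 10 lines; limma, adjusted p = 0.000215) and was lower in 10 of 10 lines, in 5 of them by more than 2-fold. In F36P its untreated libraries held 140, 163 and 166 CPM and the etoposide libraries 47.3, 40.7 and 44.8 CPM, a log2 fold change of -1.82 (edgeR, adjusted p = 2.92e-06). The KASUMI1 libraries went from 156, 150 and 144 to 51, 43.8 and 42.7 CPM (log2 fold change -1.71, adjusted p = 7.71e-07). Those groups lie far apart, and less than 1% of the genes tested in either line (0.848% and 0.826%) had a lower log2 fold change. MONOMAC6, NB4 and NOMO1 followed with -1.44, -1.3 and -1.19. The smallest change was in HL60, with 101, 89.1 and 99.5 CPM untreated and 75.4, 74.5 and 59.5 CPM after etoposide (log2 fold change -0.47, adjusted p = 0.00456), where the groups still did not overlap.

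POLR1A had a mean log2 fold change of -0.84 ± 0.162 (adjusted p = 0.00164) and moved with POLR1B over the lines (Pearson r = 0.95, n = 10 lines, a description of values from the same libraries). In KASUMI1 it went from 241, 224 and 224 CPM to 68.2, 53.8 and 63.2 CPM, a 3.72-fold decrease (log2 fold change -1.89, edgeR adjusted p = 7.22e-07) and the largest of any member in any of the 10 lines. F36P had 316, 270 and 275 CPM untreated and 91, 92.1 and 109 CPM after etoposide (log2 fold change -1.56). The groups lay far apart in both lines. At the other end were THP1, with 113, 94.3 and 98.7 against 82.1, 99.2 and 86.4 CPM, where the groups overlapped (log2 fold change -0.19, adjusted p = 0.255), and MOLM13 (-0.25, adjusted p = 0.0185). Single libraries decided these last calls. POLR1A in MOLM13 had an adjusted p of 0.08 without untreated replicate 1, 0.061 without untreated replicate 2 and 0.0744 without etoposide replicate 3, and in THP1 of 0.0409 without etoposide replicate 2. The change above 2-fold in NB4 (2.04-fold) was 1.96-fold without untreated replicate 1 and 1.93-fold without etoposide replicate 3.

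The subunits POLR1C and POLR1E changed less. POLR1C, which Pol I shares with Pol III, was lower in 8 of 10 lines with a mean log2 fold change of -0.55 ± 0.11 (limma, adjusted p = 0.00197). Its lowest value was again in KASUMI1, from 50.5, 51 and 56.2 to 22.3, 27 and 21.7 CPM (log2 fold change -1.15), and its highest in HL60 (-0.04, edgeR adjusted p = 0.78). POLR1E, which pairs with POLR1G in a module of Pol I, was lower in 7 of 10 lines, with a mean of -0.38 ± 0.0998 (adjusted p = 0.00908). It ranged from -0.97 in F36P, where libraries of 64.4, 70.8 and 64.3 CPM became 37.5, 35.2 and 28.9 CPM, to 0.14 in HL60 (adjusted p = 0.255), where they overlapped. Without untreated replicate 1, POLR1C and POLR1E in F36P passed 2-fold with log2 fold changes of -1.11 and -1.04 (edgeR, adjusted p = 9.27e-06 and 3.19e-05), against -0.96 and -0.97 with all libraries. They also did so without untreated replicate 3 (-1.02 and -1.11), and POLR1E without etoposide replicate 1 (-1.06) or 2 (-1.01). Leaving out etoposide replicate 3 took the adjusted p past 0.05 for POLR1C in NB4 (0.0548) and for POLR1E in MONOMAC6 (0.0505) and NB4 (0.0904), and POLR1E in NOMO1 passed without etoposide replicate 1 (0.0118). At most 7.12% of the exon length of POLR1C overlaps any one gene on the opposite strand, and the counts appear to have been made by strand.

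Among the initiation factors, UBTF, the HMG-box protein that keeps the repeats open, fell in 9 of 10 lines, in each by less than 2-fold with all libraries. Its mean log2 fold change was -0.42 ± 0.079 (limma, adjusted p = 0.00148). F36P had the largest, from 248, 230 and 183 to 125, 126 and 108 CPM (log2 fold change -0.88), and NB4 the next (-0.67). Without untreated replicate 3, the lowest of the F36P libraries before etoposide, the F36P value passed 2-fold (-1.11, edgeR adjusted p = 5.33e-08). In HL60 the groups of 317, 280 and 305 and of 263, 298 and 284 CPM overlapped (-0.09, edgeR adjusted p = 0.445). The call in KASUMI1 (-0.26, adjusted p = 0.0143) was lost without etoposide replicate 3 (0.0598).

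TAF1D, a subunit of the promoter selectivity factor, was lower in 7 of 10 lines, with a mean log2 fold change of -0.42 ± 0.0909 (limma, adjusted p = 0.00308). Unlike the other members it fell furthest in MV411, from 240, 238 and 238 to 137, 132 and 116 CPM (log2 fold change -0.9, edgeR adjusted p = 3.22e-11). MONOMAC6 (-0.72) and THP1 (-0.64) followed. In NOMO1 both means were 150 CPM and the libraries overlapped. Several calls of TAF1D rested on single libraries and on the processing. Scaled by library size alone, the values were -0.26 in F36P (edgeR, adjusted p = 0.198), -0.13 in KASUMI1 (0.293) and 0.0 in NB4 (0.994). With only genes at a mean of at least 5 CPM, the adjusted p was 0.126, 0.0872 and 0.148 in these lines. In F36P (-0.51, adjusted p = 0.032) the untreated libraries spread from 191 to 326 CPM, the adjusted p rose to 0.079, 0.0668 and 0.108 without untreated replicate 2, etoposide replicate 2 and etoposide replicate 3, and the value was -0.74 (adjusted p = 0.000263) without untreated replicate 1. In KASUMI1 (-0.31, adjusted p = 0.022) it was 0.0763 and 0.0742 without untreated replicate 1 and 2. The NB4 value (-0.21, adjusted p = 0.046) passed no longer without untreated replicate 1 (0.0526) or 3 (0.0906) or etoposide replicate 2 (0.168) or 3 (0.179). OCIAML3 (-0.44, adjusted p = 0.061) passed on leaving out any one etoposide replicate, with -0.55 without replicate 1 (0.0433), -0.56 without replicate 2 (0.0359) and only -0.25 without replicate 3 (0.0223).

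RRN3, the factor that makes Pol I competent to start and that growth signals are known to regulate by phosphorylation, behaved differently from the rest. In NOMO1 it rose from 15.5, 11.9 and 13.1 to 20.3, 25.1 and 23.6 CPM (log2 fold change 0.77, edgeR adjusted p = 0.000298). In THP1 it rose from 7.12, 5.72 and 6.33 to 10.8, 10.4 and 13.3 CPM (0.85, adjusted p = 0.000744). Neither pair of groups overlapped, and 28.8% of the genes in NOMO1 and 16.1% of those in THP1 were higher. It fell in KASUMI1 (-0.61, adjusted p = 0.0128), MOLM13 (-0.44, adjusted p = 0.0119) and MV411 (-0.35, adjusted p = 0.00721), and the KASUMI1 call was lost without etoposide replicate 3 (0.0532). In F36P, HL60, MONOMAC6, NB4 and OCIAML3 it passed in neither direction, with log2 fold changes from -0.24 to 0.29. Single libraries moved these values. The F36P value of -0.13 was -0.42 without untreated replicate 1 (adjusted p = 0.0596) and 0.05 without untreated replicate 3 (adjusted p = 0.858). Leaving out 1 library at a time, HL60 ranged from 0.15 to 0.37, OCIAML3 from -0.31 to -0.07, MONOMAC6 from 0.02 to 0.14 and NB4 from -0.32 to -0.16. In NB4, whose same-numbered libraries varied together, the fit with the replicate number as a block gave -0.25 with an adjusted p of 0.0387, against 0.107 without the block, and the value without untreated replicate 3 also passed (0.0484). The test of a difference between lines gave an adjusted p of 1.55e-07.

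RRN3 is also the member with the fewest reads, 79 to 504 per library. Its near-identical copies RRN3P1, RRN3P2 and RRN3P3 together held 23617 reads over all libraries, against 17214 on RRN3 itself. Reads that match RRN3 and a copy alike may be missing from the counts or placed on the copy. In NOMO1 the copies RRN3P1 (log2 fold change 0.64, edgeR adjusted p = 0.000928) and RRN3P2 (0.89, adjusted p = 0.000552) were higher as well. In THP1 RRN3P2 was higher (0.76, adjusted p = 0.0179) and RRN3P1 had 0.14 (adjusted p = 0.599). RRN3P3 passed in neither line, with 0.31 in NOMO1 (adjusted p = 0.0876) and -0.04 in THP1 (adjusted p = 0.907). Where RRN3 fell, RRN3P1 was lower in KASUMI1 (-0.5, edgeR adjusted p = 0.00969) and RRN3P2 higher in MOLM13 (0.64, adjusted p = 0.00507). No other copy passed in those lines or in MV411. Among lines where RRN3 passed in neither direction, RRN3P1 was higher in NB4 (0.41, adjusted p = 0.0206) and RRN3P2 in HL60 (0.57, 0.0389). RRN3P3 was higher in OCIAML3 (0.43, 0.0409) and lower in F36P (-0.75, 0.0162). The part of the copies in the RRN3 values was not tested.

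**Figure D3:**
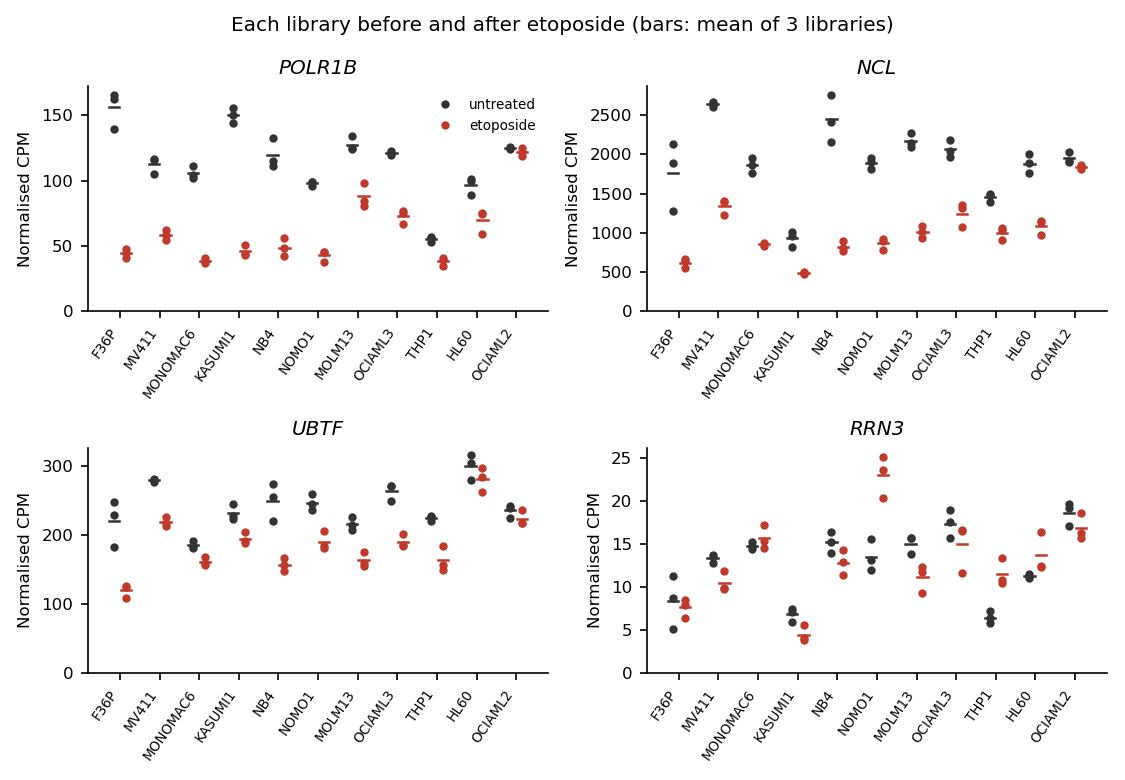
CPM normalised within each cell line (vertical axis, from 0) of POLR1B, NCL, UBTF and RRN3 in each of the 3 untreated (dark) and 3 etoposide (red) libraries per line, with bars at the means. POLR1B and NCL were lower in all etoposide libraries of 10 lines, whereas RRN3 was higher in NOMO1 and THP1, and the log2 fold changes of OCIAML2, at the right end, stayed within 0.15 of 0.

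The abundant nucleolar proteins fell in every one of the 10 lines at an FDR below 0.05. NCL, which binds the ribosomal RNA precursor, had the second lowest mean of the members, with -1.04 ± 0.101 (SE, n = 10; limma, adjusted p = 6.26e-05), and changes that were more alike between lines (SD 0.32) than those of POLR1B (SD 0.5). NB4 had 2420, 2760 and 2160 CPM untreated and 891, 806 and 773 CPM after etoposide, a 2.97-fold decrease (edgeR, adjusted p = 7.44e-09). F36P went from 1280, 1890 and 2130 to 661, 645 and 555 CPM (log2 fold change -1.51), with groups that did not overlap in spite of the spread of the untreated libraries (-1.74 without untreated replicate 1). MOLM13 (-1.11), MONOMAC6 (-1.12) and NOMO1 (-1.12) also passed 2-fold. THP1 had the smallest change, from 1500, 1390 and 1480 to 1040, 913 and 1060 CPM (log2 fold change -0.54, adjusted p = 0.00137).

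NPM1, which binds histones and ribosomal proteins, had a mean log2 fold change of -0.81 ± 0.0954 (limma, adjusted p = 0.00012). In F36P it went from 1270, 2190 and 2640 to 832, 775 and 600 CPM (log2 fold change -1.47, edgeR adjusted p = 0.000403), and without untreated replicate 1, the lowest of these, the value was -1.75. MV411 had very even libraries of 1480, 1460 and 1450 CPM untreated and 780, 725 and 685 CPM after etoposide, a 2.01-fold decrease (adjusted p = 4.04e-13) that was 1.95-fold without etoposide replicate 3. OCIAML3, known to carry a mutation of NPM1 that sends the protein to the cytoplasm, had 1450, 1290 and 1530 CPM before and 941, 954 and 645 CPM after (log2 fold change -0.75, adjusted p = 0.0037), between the other lines in both level and change. The counts do not separate the 2 alleles. THP1 had the smallest value (-0.42, adjusted p = 0.0121), which passed neither without untreated replicate 1 (0.0548) nor without untreated replicate 2 (0.0939). The 49 pseudogenes of NPM1 held 0.753% of its reads.

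FBL had a mean log2 fold change of -0.77 ± 0.0889 (limma, adjusted p = 0.000113). It ranged from -1.24 in F36P, where 267, 274 and 219 CPM became 106, 120 and 96.4 CPM, to -0.31 in HL60, where 245, 236 and 253 CPM became 186, 207 and 200 CPM (edgeR, adjusted p = 0.0131). None of these groups overlapped. The HL60 call was lost without untreated replicate 1 (0.0536) or 3 (0.105). The THP1 call (-0.37, adjusted p = 0.0413) was lost without any replicate other than etoposide replicate 2 (adjusted p from 0.0944 to 0.172).

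Line by line, F36P had 9 of 10 members lower at an FDR below 0.05 (25.0% of its genes were) and 5 of them by more than 2-fold (6.67%). All 10 members were lower in KASUMI1 (28.6% of genes), MOLM13 (28.1%) and MV411 (30.4%). The count was 9 in MONOMAC6 (30.5%) and NB4 (28.7%), 8 in OCIAML3 (17.7%), 7 in NOMO1 (23.9%), 6 in THP1 (16.0%) and 5 in HL60 (15.0%). In NB4 the remaining member, RRN3, was lower as well with the replicate number as a block (edgeR, adjusted p = 0.0387). By more than 2-fold, 3 members were lower in KASUMI1 (6.52% of genes), MONOMAC6 (4.47%) and NB4 (4.82%), 2 in NOMO1 (4.43%) and 1 in each of MOLM13 (3.37%) and MV411 (2.63%). Counts past 2-fold moved most in F36P and MV411, which had several members close to that limit. F36P had 7 without untreated replicate 1 and 8 without untreated replicate 3. MV411 had 2 without untreated replicate 2, 3 without etoposide replicate 1 or 2, and 0 without etoposide replicate 3. Lines with a like count differed in which genes led. KASUMI1 had its largest changes in POLR1A, POLR1B and POLR1C, with NPM1 at -0.48. In MOLM13, conversely, NCL (-1.11), NPM1 (-0.81) and FBL (-0.76) led and POLR1A was at -0.25. In HL60 the lower members were POLR1A, POLR1B, NCL, NPM1 and FBL, with log2 fold changes from -0.79 to -0.31.

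In OCIAML2, 0 members passed in edgeR's quasi-likelihood test, its exact test and DESeq2, 0 did at an unadjusted p below 0.05, and the largest log2 fold change in either direction was 0.15. Across all its genes, 0.0% were lower and 0.0221% higher at an FDR below 0.05, and 456 genes had an unadjusted p below 0.05. NCL for example had 1920, 1910 and 2030 CPM in the untreated and 1820, 1860 and 1840 CPM in the libraries labelled etoposide. MYC had a log2 fold change of -0.11 there (adjusted p = 0.998).

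MYC itself fell in 10 of 10 lines, by more than 2-fold in 6, with a mean log2 fold change of -1.71 ± 0.279 (SE, n = 10; limma, adjusted p = 0.000637). In F36P it went from 910, 833 and 792 to 50.2, 65.5 and 72.3 CPM, 13.5-fold lower (edgeR, adjusted p = 5.16e-07), and 0.0% of the genes tested there had a lower log2 fold change. MONOMAC6 had -2.67, KASUMI1 -2.2, NB4 -2.01, MV411 -1.76 and NOMO1 -1.68, and these 6 lines were also those with the lowest medians of the members, from -1.1 in F36P to -0.6 in NOMO1. In THP1, OCIAML3, MOLM13 and HL60, MYC had values from -0.98 to -0.56 and the members medians from -0.54 to -0.2. MYC in THP1 passed 2-fold without etoposide replicate 2 (2.16-fold lower) and, barely, without untreated replicate 1.

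Over the 10 lines, the change of POLR1B followed that of MYC most closely (Pearson r = 0.93, Spearman rho = 0.96). Without F36P and HL60, the lines farthest from the median MYC change, r was 0.91 over 8 lines. POLR1A had r = 0.83 (rho = 0.84, and 0.82 without these lines) and FBL r = 0.82 (rho = 0.75, and 0.59). For POLR1E (r = 0.64) and NPM1 (r = 0.7) the relation rested on those 2 lines, since r was 0.03 and 0.25 without them, and for UBTF r changed from 0.5 to -0.41. POLR1C had r = 0.69 (0.54 without the 2 lines), NCL 0.68 (0.47), TAF1D 0.23 (0.04) and RRN3 0.19 (0.11). The median over the members was 0.68, against 0.07 over 10587 genes, and 7 of 10 members were above 0.5, as were 22.3% of these genes. Without F36P the median over the members was 0.436. All these values come from the same libraries for both genes and carry no test. The etoposide concentration also differed from line to line, so a relation to MYC and one to concentration cannot be told apart.

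**Figure D4:**
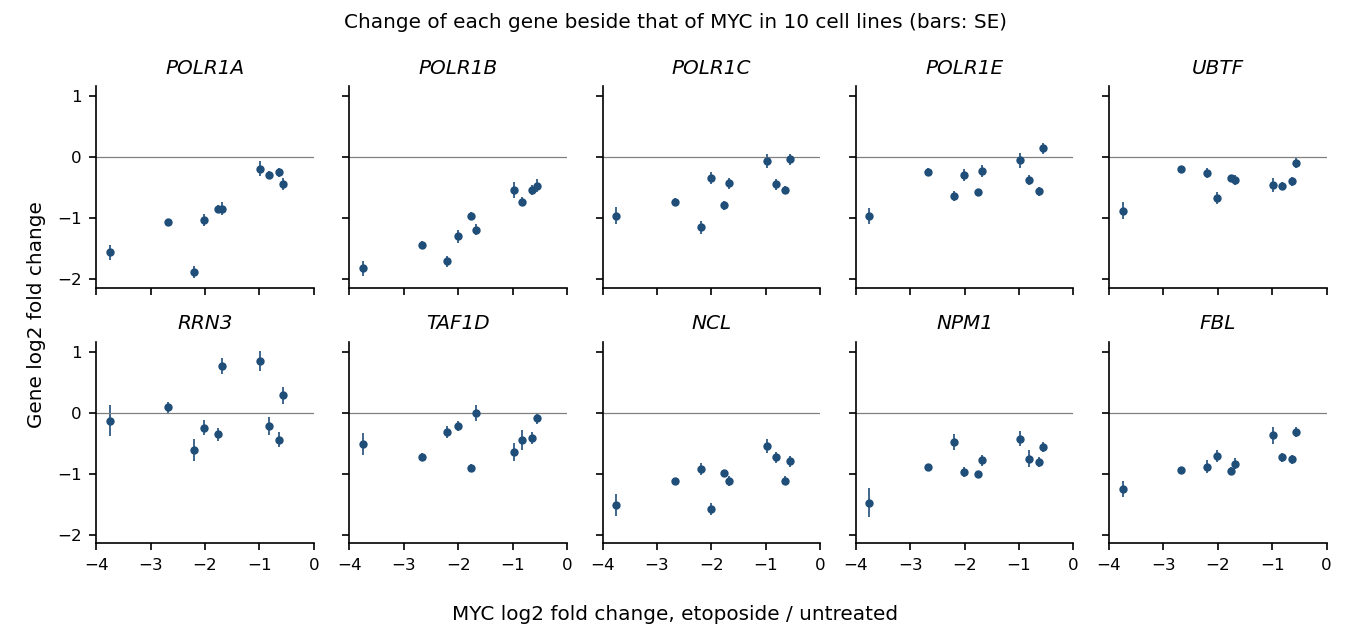
Log2 fold change of each gene (vertical axis, bars are SE) against that of MYC (horizontal axis) in 10 cell lines, 1 point per line. POLR1B and POLR1A fall along with MYC (r = 0.93 and 0.83), and the points of UBTF, TAF1D and RRN3 do not line up (r = 0.5, 0.23 and 0.19).

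In most pairs the log2 fold change of MYC was below that of the member. The exceptions were 5 of the 100 pairs. In HL60 they were NCL (-0.79 against -0.56) and, by a margin lost in rounding, NPM1 (1.48-fold lower against 1.47-fold for MYC). In MOLM13 they were NCL, NPM1 and FBL (-1.11, -0.81 and -0.76 against -0.64). MOLM13 thus had 560, 524 and 471 CPM of MYC untreated and 313, 356 and 327 CPM after etoposide, beside NCL at 2280, 2150 and 2090 CPM untreated and 1090, 931 and 1010 CPM after. The difference between the changes of these genes was not tested.

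Other genes of the nucleolus were lower in most lines too. Of the core proteins of snoRNPs, 59 of 70 pairs of gene and line were lower (84.3%) with a median log2 fold change of -0.61, beside 24.4% and 0.01 over all genes. GAR1, DKC1 and NHP2, of the box H/ACA particles that make pseudouridine, had means over lines of -0.83, -0.81 and -0.76. The small subunit processing factors were lower in 290 of 374 pairs (77.5%, median -0.58), led by UTP20, WDR3 and WDR43 with means of -1.15, -1.06 and -1.03. The large subunit assembly factors were lower in 228 of 310 pairs (73.5%, median -0.56), and NOP16, RRS1 and EBNA1BP2 had means of -1.18, -1.14 and -0.97. Among nucleolar scaffold proteins and chaperones 47 of 70 pairs were lower (67.1%, median -0.7). DDX21, an RNA helicase, NPM3, a relative of NPM1, and NOLC1, which helps snoRNPs to assemble, led with -0.85, -0.93 and -0.81. NOP53 of the same list was lower in 0 lines and higher in 4, with a mean of 0.28 (limma, adjusted p = 0.0164). It was named after its values were seen. Higher pairs numbered 0 of the snoRNP core, 2 of the small subunit, 2 of the large subunit and 4 of the scaffold list. Over all genes 27.7% of pairs were higher.

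The remaining parts of the Pol I machinery changed unevenly. In this list of 10 partners 52 of 100 pairs were lower and 7 higher, with a median of -0.27. POLR1G, a subunit particular to Pol I, was lower in 10 of 10 lines and by more than 2-fold in 7, with a mean of -1.17, close to POLR1B. MYBBP1A, a nucleolar protein known to bind transcription factors, was lower in 10 of 10 lines with a mean of -1.1. POLR1H, the small zinc subunit, was lower in 5 lines and higher in 1, with a mean of -0.3 (limma, adjusted p = 0.101).

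**Figure D5:**
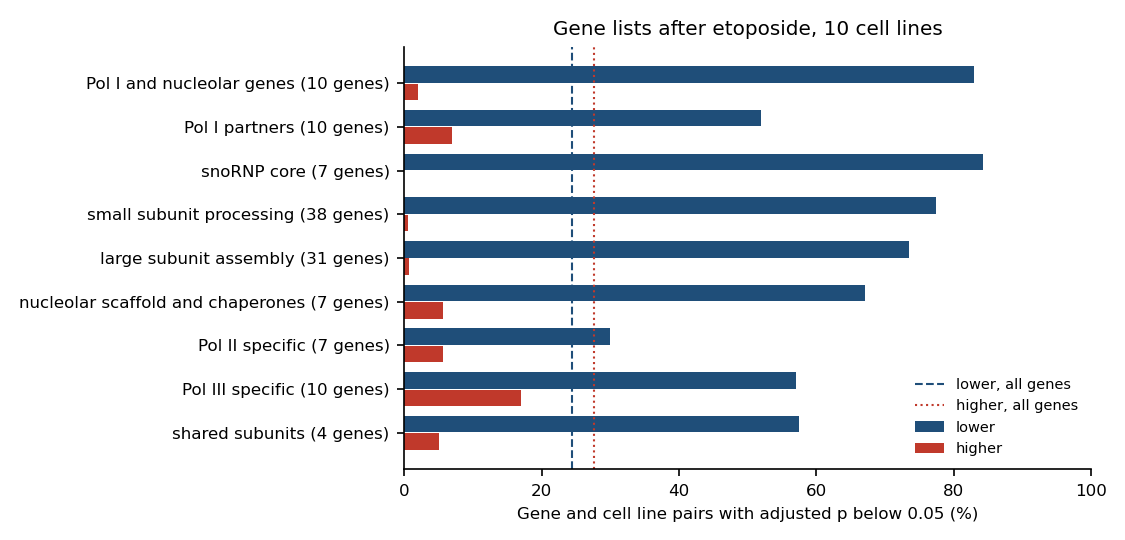
Share of pairs of gene and cell line that were lower (blue) or higher (red) at an FDR below 0.05 after etoposide (horizontal axis, percent) for the 10 Pol I and nucleolar genes and 8 lists of related genes in 10 lines, with the shares of all genes as vertical lines (24.4% lower, 27.7% higher). The Pol I and nucleolar genes (83.0% lower) and the snoRNP core (84.3%) lie far right of the line, and the genes of Pol II, lower in 21 of 70 pairs, close to it.

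The E-box was also found near the starts of these other genes, at 29 of 38 small subunit processing factors (76.3%) and 21 of 31 large subunit assembly factors (67.7%). The count was 6 of 7 for snoRNP core genes and 4 of 10 for Pol I partners. Over all protein-coding genes the share was 29.2%, and here too neither expression nor base composition was matched. Among the members with the motif, mean log2 fold changes over the lines were from -1.07 for POLR1B to -0.38 for POLR1E, and among those without it from -0.84 for POLR1A to 0.00 for RRN3.

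Among themselves, the changes of the members correlated with a median r of 0.51 over 45 pairs (from -0.16 to 0.95, 10 lines). That of their untreated levels was 0.28 over 11 lines. Neither median was set against pairs of other genes, so no closer relation among the members than among genes at large can be read from them. POLR1A and POLR1B (0.95), POLR1E and FBL (0.87) and POLR1C and FBL (0.86) were the closest pairs. NCL and NPM1 had r = 0.79 in the change and -0.05 in the untreated level. The genes whose changes over the 10 lines were most like the mean of the members, out of 9470 genes, were UTP14A (r = 0.981), LAS1L (0.971), CCDC86 (0.97), DDX10 (0.968) and RBM28 (0.966), with mean log2 fold changes from -1.15 to -0.52. MYC ranked 370 by this measure (r = 0.854).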

How the data were processed

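Counts of reads per gene were deposited by the authors, 1 column per library and not normalised. Per the labels and the study's methods, reads were mapped with STAR 2.5.3a to GRCh38.p7 with gencode 25, FastQC 0.11.5 was used for quality control, and edgeR 3.20.1 for differential expression. The count column, edgeR test and filter are not given in the sources used here. The counts appear to follow the strand, since reads fell on 375 of 477 genes that lie within an exon on the other strand. Any read was enough for this check and its exons were those of gencode 44, so it does not settle the point. Of 58037 identifiers, 45 duplicates in the pseudoautosomal region of Y, with 0 reads, were dropped. Symbols came by identifier from gencode 44 on GRCh38 for 56948 of 57992 genes.

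Each line's etoposide libraries (3) were tested against its untreated ones (3) using edgeR 4.0.16 in R 4.3.3 (filterByExpr with a minimum count of 10 and total of 15, TMM, quasi-likelihood test, Benjamini-Hochberg adjustment over all genes tested). Genes with an FDR below 0.05 were taken as lower or higher. The study required a fold change above 2 as well, and genes that meet both limits were counted apart. Changes per line were averaged with limma 3.58.1 over 10 lines. Differences between lines were tested by the interaction of treatment and line over 60 libraries, and untreated levels over 33 libraries. Untreated levels were normalised over the 33 libraries, and levels before and after etoposide within each line, so they differ slightly. Python 3.11.15 was used for the rest, with levels per kb from the canonical transcript.

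The main fits used no pairing of libraries in any line, NB4 included, and the replicate number as a block was an alternative. The limit set for pairing was that deviations of same-numbered libraries from the group means correlated above 0.1 in each pair. Only NB4 met this limit (0.265, 0.22 and 0.152), a hint from the data and not from the labels. Other lines fell short of it with positive values, such as MOLM13 (0.231, 0.089 and 0.149), so pairing there was not settled. Steps were tested on simulated data. Alternatives were DESeq2 1.42.0 and its size factors, library size alone, no filter or a mean of at least 5 CPM, the exact test, 1 fit of 60 libraries, the replicate block, each replicate left out, and omission of F36P. The members and lists were chosen with earlier results of these data known. Named genes were all members and MYC, the 3 genes of each list lower or higher by more than 2-fold in the most lines, the near-identical copies, and the 5 genes most like the members. Some genes that this rule or the marker lists hold are not reported here. The lists were Pol I partners, snoRNP core, small subunit processing, large subunit assembly, nucleolar scaffold and chaperones, subunits of Pol II or Pol III, and subunits shared by them.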

Additional observations from a re-analysis of the deposited data

Results flagged for a closer look

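For each member and for MYC, the change after etoposide differed between the 10 lines in edgeR's interaction test with Benjamini-Hochberg adjustment over 19974 genes, of which 74.5% passed. The adjusted p was 1.4e-16 for POLR1A, 3.63e-15 for POLR1B, 1.07e-11 for POLR1C, 1.39e-10 for POLR1E and 1.26e-05 for UBTF. It was 1.55e-07 for RRN3, 0.00105 for TAF1D, 4.14e-08 for NCL, 0.000192 for NPM1 and 3.08e-06 for FBL. For MYC it was 6.95e-24. Concentrations of etoposide differed between lines as well, so that line and concentration cannot be told apart.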

How the results depend on the processing

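Of 1683 values of single genes in single lines under another setting, 1620 stayed on their side of the threshold, 50 passed it no longer, 13 came to pass it, and none that passed in either fit changed its sign, while 27 that passed in neither did. The counts of members stayed within 1.5 times under all settings run, with 70 pairs lower and 13 lower by more than 2-fold under library size alone. That setting moved the median of all genes upward by more than 0.1 in F36P (0.09 to 0.34), KASUMI1 (0.03 to 0.2), NB4 (0.01 to 0.21), MV411 (0.01 to 0.14) and MONOMAC6 (0.01 to 0.13). Among the other lists, library size alone gave 12 higher Pol I partner pairs, 7 snoRNP core and 50 small subunit pairs lower by more than 2-fold, 7 higher scaffold pairs, 11 lower and 10 higher Pol II pairs, 1 Pol III pair higher by more than 2-fold, and 0 and 15 shared subunit pairs lower with and without the 2-fold limit. With a mean of at least 5 CPM, 8 Pol II pairs were higher, 1 Pol III pair was higher and 0 shared subunit pairs lower by more than 2-fold. With no filter, 4 shared subunit pairs were higher, 1 by more than 2-fold. The fit of 60 libraries gave 4 higher small subunit, 0 large subunit and 2 scaffold pairs, and 1 Pol III and 1 shared subunit pair higher by more than 2-fold. The cause was not tested. Without single replicates, higher pairs were 2 to 4 of the small subunit, 1 to 4 of the large subunit and 2 to 6 of the scaffold list, lower Pol II pairs were 13 to 22, and pairs past 2-fold were 0 to 1 lower for Pol II, 0 to 1 higher for Pol III and 1 to 2 lower for shared subunits, where the lowest Pol II count was that without untreated replicate 2. The median r of the members with MYC was 0.436 without F36P. Under the replicate block 83 member pairs were lower and 18 by more than 2-fold, as without it. Its only changes among the members were RRN3 in NB4 and TAF1D in F36P (adjusted p = 0.0734). No line other than NB4 met the limit set for pairing by number. RRN3 had the fewest reads of the members. Levels are relative to all counted RNA.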

Other observations

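The polymerases that share subunits with Pol I differed among themselves. Subunits particular to Pol II, which transcribes messenger RNA, were lower in 21 of 70 pairs of gene and line (24.4% of the pairs of all genes were) and higher in 4, with a median log2 fold change of -0.13. POLR2I, POLR2B and POLR2D had the largest means of this list, from -0.42 to -0.25. Subunits particular to Pol III, which makes transfer RNA and 5S ribosomal RNA, were lower in 57 of 100 pairs and higher in 17, with a median of -0.31. Subunits shared by the polymerases were lower in 23 of 40 pairs (57.5%) and higher in 2, with a median of -0.32, for 4 of the 5 genes listed, since the other did not pass the filter. POLR2H (mean -0.56, lower in 8 lines) and POLR2E (-0.44, lower in 7) moved most, and POLR2L (-0.14, limma adjusted p = 0.257) was lower in 4 lines and higher in 1.

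Within Pol III, POLR3G was lower in 10 of 10 lines and by more than 2-fold in 9, with a mean log2 fold change of -1.65 and a smallest change of -0.97 in HL60. POLR3B had a mean of -0.63 and was lower in 8 lines. POLR3GL, the paralog that takes the place of POLR3G in the enzyme, was higher in 7 lines and lower in 0 by edgeR's quasi-likelihood test, with a mean of 0.42 and a range from -0.07 to 0.98. It was chosen after its values were seen. Of the Pol III genes, 8 of 10 held the E-box within 1000 bases of the start, and of those particular to Pol II 1 of 7 did. The share over all protein-coding genes was 29.2%, with neither expression nor base composition matched. No enrichment can be read from these counts, and a relation to the changes was not tested.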
